A study of Mus musculus with 60 samples.

Results

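The distal maxilla, the distal piece of the embryonic upper jaw, was followed between embryonic days E14.5 and E13.5. It was chosen by its sample labels: 3 arrays titled as distal maxilla at E14.5 and 3 at E13.5, which make 6 of the 60 arrays of a FaceBase survey of mouse jaw development. That survey covers distal and proximal pieces of maxilla and mandible from C57Bl/6 mouse embryos at daily stages, with no treatment or engineered allele named in the labels. Each array was hybridised with labelled RNA made from 3 µg of total RNA, and the labels give the tissue of all these arrays as bone although they come from whole jaw pieces. Neither the plane of the dissection nor the origin of the 3 arrays of an age, as separate embryos or as pools, is given, so p-values measure only how arrays of one group vary, estimated over all groups of the survey, and this variation may be technical. All 6 arrays carry the same batch label, batch 2, as do the proximal maxilla arrays of both ages and the distal maxilla arrays at E12.5, while the distal mandible arrays of both ages carry batch 1.

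At these stages the upper jaw passes from patterned mesenchyme to organised tissue. Mesenchymal cells derived from the neural crest condense and turn directly into osteoblasts, without a cartilage model, and osteoblasts lay down collagen and then mineralise it. The covering ectoderm stratifies, the lining of the nasal passages differentiates into ciliated and secretory cells, and axons of the trigeminal ganglion branch in the mesenchyme and skin. Red cells made in the yolk sac, which carry embryonic globins, are replaced over the same days by red cells from the fetal liver.

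The values are log2 signals, on which a difference of 1 is a doubling, and each gene is read from 1 probe set. Array medians lay between 6.138 and 6.192, and arrays of the same age correlated at 0.997266 or higher, against at most 0.992568 between the ages. The limit of presence used here was a log2 signal of 4.78, the highest 25th percentile of any array. As a check of the labelled tissue, all 23 measured facial patterning homeobox genes were above it at both ages. The array medians lie above this limit, so most probe sets pass it and presence is a weak check of the tissue. Of 12 measured axial Hox genes, which are active in the trunk and not in the first arch, 8 were above that limit at E14.5 and 9 at E13.5, so these markers did not separate the jaw from trunk tissue by presence alone, and none was called between the ages.

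Of 18193 genes, 2832 (15.6%) passed an adjusted p of 0.05 in the limma fit. At E14.5, 1727 genes were higher (9.49% of all genes) and 1105 were lower (6.07%). Most shifts were small, since 1876 of the called genes differed by less than 0.5, and the median difference over all genes was -0.00333. At least a 2-fold difference was reached by 266 genes (1.46%), of which 166 were higher (0.912%) and 100 lower (0.550%). The arrays of the ages did not overlap for 2778 of the called genes, and for 6296 genes in all (34.6%). The largest increases were in genes of bone, of ciliated and secretory lining epithelium and of stratified skin, and the largest decreases were in genes of sensory neurons.

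**Figure D1:**
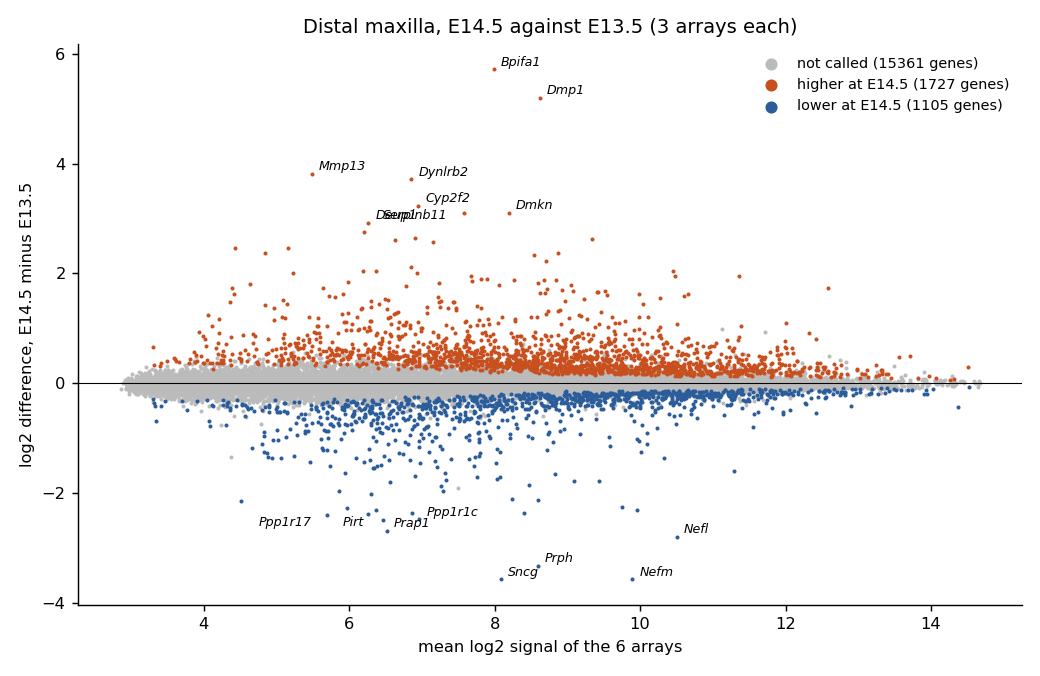
Each point is a gene, with its mean log2 signal over the 6 distal maxilla arrays on the horizontal axis and its log2 difference, E14.5 minus E13.5, on the vertical axis. Orange marks the 1727 genes called higher, blue the 1105 called lower and grey the rest. Bpifa1 and Dmp1 stand above all other genes at 5.71 and 5.19, and the neuronal genes Nefm, Sncg and Prph lie lowest, under -3.

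Bone matrix was the gene group with the broadest increase. Of 20 measured genes for bone matrix and mineralisation, 18 rose and 0 fell, with a median difference of 1.42, against the -0.00333 of all genes. The 2 that were not called were Cdh11, a cadherin of mesenchyme and osteoblasts, with a difference of 0.00, and Mepe, a matrix phosphoglycoprotein of osteocytes, with 0.30. The summed linear signal of the list was 87414 to 93031 at E14.5, against 56784 to 58436 at E13.5. In whole pieces of jaw, more cells of a type and more RNA per cell cannot be told apart, here and in all results that follow.

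Dmp1, dentin matrix protein 1, a phosphoprotein secreted by maturing osteoblasts and osteocytes, read 11.14, 11.30 and 11.22 at E14.5, against 6.34, 5.79 and 5.94 at E13.5. The ages were far apart with no overlap. The difference was 5.19 with a standard error (SE) of 0.25, a 36.6-fold change with an adjusted p of 1.32e-21, and 2 further probe sets of the gene were called in the same direction. At E12.5 the gene had averaged 3.92, under the limit of presence. Mmp13, the collagenase of late osteoblasts and hypertrophic cartilage, read 7.45, 7.61 and 7.11 at E14.5, against 3.57, 3.63 and 3.53 at E13.5, where it was not shown to be present. The gene was thus detected only at the later age, at least 6.10-fold higher, with a fitted difference of 3.81 (SE 0.22, adjusted p 1.07e-18).

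Promoters of Dmp1 and Mmp13 are shown because these genes rose most among the bone genes. Each sequence runs 5′ to 3′ on the strand of the gene, as a window of 300 bases around the annotated start, as given by RefSeq for build GRCm38.p6. Capitals mark the core motif of Runx factors, TGTGGT, which was searched on both strands and reads ACCACA where it lies on the other strand. Dmp1 has 2 annotated starts, at chr5:104197325-104197624 and chr5:104202367-104202666, both on the plus strand, and Mmp13 has 1, at chr9:7272264-7272563 on the plus strand.
Dmp1, first start: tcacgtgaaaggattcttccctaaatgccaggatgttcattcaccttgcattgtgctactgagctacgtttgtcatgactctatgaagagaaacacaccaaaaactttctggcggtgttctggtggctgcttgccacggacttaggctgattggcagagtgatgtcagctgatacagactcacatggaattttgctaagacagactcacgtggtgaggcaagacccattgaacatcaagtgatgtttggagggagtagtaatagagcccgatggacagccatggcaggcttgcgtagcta
Dmp1, second start: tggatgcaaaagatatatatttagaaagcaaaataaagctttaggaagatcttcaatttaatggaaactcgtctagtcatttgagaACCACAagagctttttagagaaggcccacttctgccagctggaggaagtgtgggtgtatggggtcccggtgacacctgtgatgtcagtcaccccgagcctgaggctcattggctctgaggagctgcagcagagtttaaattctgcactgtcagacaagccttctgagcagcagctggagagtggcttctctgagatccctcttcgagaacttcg
Mmp13: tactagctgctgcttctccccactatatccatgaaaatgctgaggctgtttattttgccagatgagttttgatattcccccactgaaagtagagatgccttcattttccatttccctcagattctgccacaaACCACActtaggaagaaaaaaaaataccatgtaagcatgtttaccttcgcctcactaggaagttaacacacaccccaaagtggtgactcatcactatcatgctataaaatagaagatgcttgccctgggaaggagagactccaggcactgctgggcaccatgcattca
The motif occurred once at the second start of Dmp1, at position -164, and once in Mmp13, at position -118, both on the minus strand. It was not found at the first start of Dmp1, nor in the promoters of Phex and Ifitm5, which followed in size of change. Among promoters of the bone lists, 5 of 25 (20%, from 19 genes) held it, against 5506 of 32851 (16.8%) of all promoters of 300 bases, so the share near bone genes was close to that of all genes. A match of letters does not show binding.

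The genes that followed Dmp1 and Mmp13 cover successive steps of matrix formation. Phex, a membrane peptidase that regulates mineralisation, averaged 9.81 ± 0.05 at E14.5 and 7.59 ± 0.14 at E13.5 (SD, n = 3 each), a 4.67-fold change. Ifitm5, a membrane protein of mineralising osteoblasts, averaged 11.48 ± 0.08 at E14.5 and 9.43 ± 0.07 at E13.5, a 4.15-fold change. Alpl, the phosphatase that releases phosphate for mineral, differed by 1.65 (SE 0.21, adjusted p 2.31e-08). Ibsp, bone sialoprotein, which nucleates mineral, read 13.36, 13.65 and 13.32 at E14.5 and 11.79, 11.67 and 11.67 at E13.5, and had been under the limit of presence at E12.5 with 2.89, 3.04 and 2.98. It was therefore present at E13.5, when Mmp13 was not shown to be, and rose by a further 1.74 (SE 0.29, adjusted p 1.07e-05). The collagen chain Col1a1 rose by 1.09 (adjusted p 0.000312), while its partner Col1a2, near the top of the range of the arrays at 14.66 ± 0.02 and 14.37 ± 0.03, rose by 0.29 (adjusted p 0.0429).

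Transcription factors of osteoblasts moved less than their matrix. Of 10 measured, 3 rose and 2 fell, with a median of -0.08. Sp7 (osterix), which commits cells to bone, averaged 10.26 ± 0.03 at E14.5 and 9.16 ± 0.14 at E13.5 (SD, n = 3 each), a rise of 1.10 (SE 0.16, adjusted p 9.44e-07). Dlx3, a homeobox factor of bone, tooth and skin, rose by 0.67 and Atf4, which sustains collagen synthesis in osteoblasts, by 0.23. Msx2, a homeobox factor that holds osteogenic precursors in proliferation, had a difference of -0.64 (adjusted p 0.0439) and Sox4 of -0.19. Dlx5 at 0.08 and Twist1 at -0.10 were not called.

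Bone-resorbing cells showed the same direction as bone. Of 14 measured osteoclast genes, 7 rose and 0 fell, with a median of 0.67. Atp6v0d2, a subunit of the osteoclast proton pump, read 7.98, 7.92 and 7.86 at E14.5 and 5.69, 6.06 and 5.63 at E13.5, a 4.37-fold change (adjusted p 4.82e-14). Acp5, the tartrate-resistant acid phosphatase, rose by 1.88, the gelatinase Mmp9 by 1.68 and the collagen-cutting protease Ctsk by 1.02. Tnfsf11, the ligand by which osteoblasts induce osteoclasts, rose by 1.01 (adjusted p 0.00246), while its receptor Tnfrsf11a at 0.36 and the master regulator Nfatc1 at -0.10 were not called. Macrophage markers, of the lineage that osteoclasts come from, rose too: 12 of 19 were higher and 0 lower, with a median of 0.46 and a summed signal of 11892 to 12296 at E14.5, against 8142 to 8474 at E13.5. Their part in the osteoclast result was not tested.

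**Figure D2:**
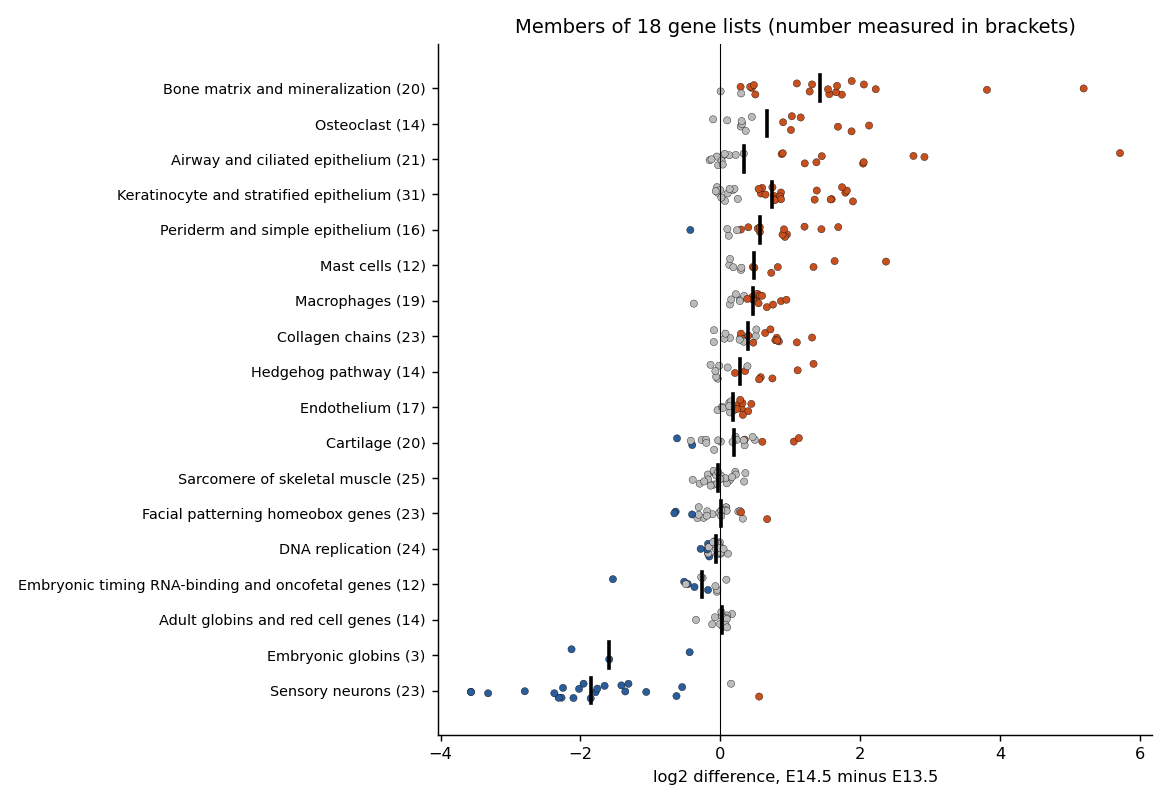
Each point is a measured member of one of 18 gene lists (number measured in brackets), placed by its log2 difference, E14.5 minus E13.5. Orange points were called higher, blue called lower, grey not called, and the black bar is the median of the list. The bone list has its median at 1.42 and no blue point, the sensory neuron list has 21 of 23 members in blue, and the skeletal muscle list is centred near 0 with none called.

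Genes of ciliated and secretory airway epithelium held the largest single change. Bpifa1, a secreted antimicrobial and surfactant protein of nasal and upper airway epithelium, read 10.77, 10.95 and 10.82 at E14.5, against 5.31, 5.12 and 4.97 at E13.5. The groups were separated by more than 5 log2 units. The difference was 5.71 (SE 0.14, adjusted p 9.7e-35), a 52.5-fold change. Of 21 measured genes on the airway list, 10 rose and 0 fell, with a median of 0.34.

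Ciliogenesis genes made up most of these. Deup1, which drives amplification of centrioles in multiciliated cells, read 7.67, 7.76 and 7.73 at E14.5 and 4.74, 4.75 and 4.92 at E13.5, a 7.56-fold change (adjusted p 3.03e-23). Its level at E13.5 lay at the limit of presence and was close to the 5.02, 4.89 and 4.83 of E12.5. Foxj1, the transcription factor that programs motile cilia, rose by 2.04 (SE 0.13, adjusted p 5.58e-17) and Ccno, which with Deup1 acts in centriole amplification, by 2.05 (SE 0.14, adjusted p 3.11e-16). Parts of the axoneme rose with them, namely Rsph1 of the radial spokes by 1.45 and Tekt1 of the microtubule doublets by 1.21. Dynlrb2, a dynein light chain of ciliated cells that is not on the list, differed by 3.71 (SE 0.23, adjusted p 1.39e-17), and Pifo, a gene of the primary cilium, by 2.61 (SE 0.18, adjusted p 1.94e-16). The heavy chain Dnah5 at 0.06 and the regulator Rfx3 at 0.04 were not called.

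Further genes of epithelial enzymes and secreted proteins divided into those that rose and those with no rise shown. Whole pieces do not show which epithelium expressed them. Reg3g, an antibacterial lectin of epithelia, read 7.75, 7.67 and 7.35 at E14.5 and 4.84, 4.50 and 5.14 at E13.5, a 6.78-fold change. Cyp2f2, a cytochrome P450 of club and nasal cells, rose by 3.23 (SE 0.23), and Cbr2, a carbonyl reductase of airway epithelium, by 2.63 (SE 0.13). Wfdc18, a secreted whey acidic protein, rose by 2.58 (SE 0.19). Cyp2f2, Cbr2 and Wfdc18 were also above the limit of presence in the distal mandible at both ages. Aldh1a1, a retinaldehyde dehydrogenase, read 8.19, 8.29 and 8.21 at E14.5 and 5.43, 5.50 and 5.83 at E13.5, a difference of 2.64. Its SE was 0.67, because other groups of the series were more variable for this gene, and its adjusted p was 0.00326. By contrast Scgb1a1, the defining secretoglobin of club cells, was not shown to be present at either age, and the mucin Muc5ac had a difference of 0.02.

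**Figure D3:**
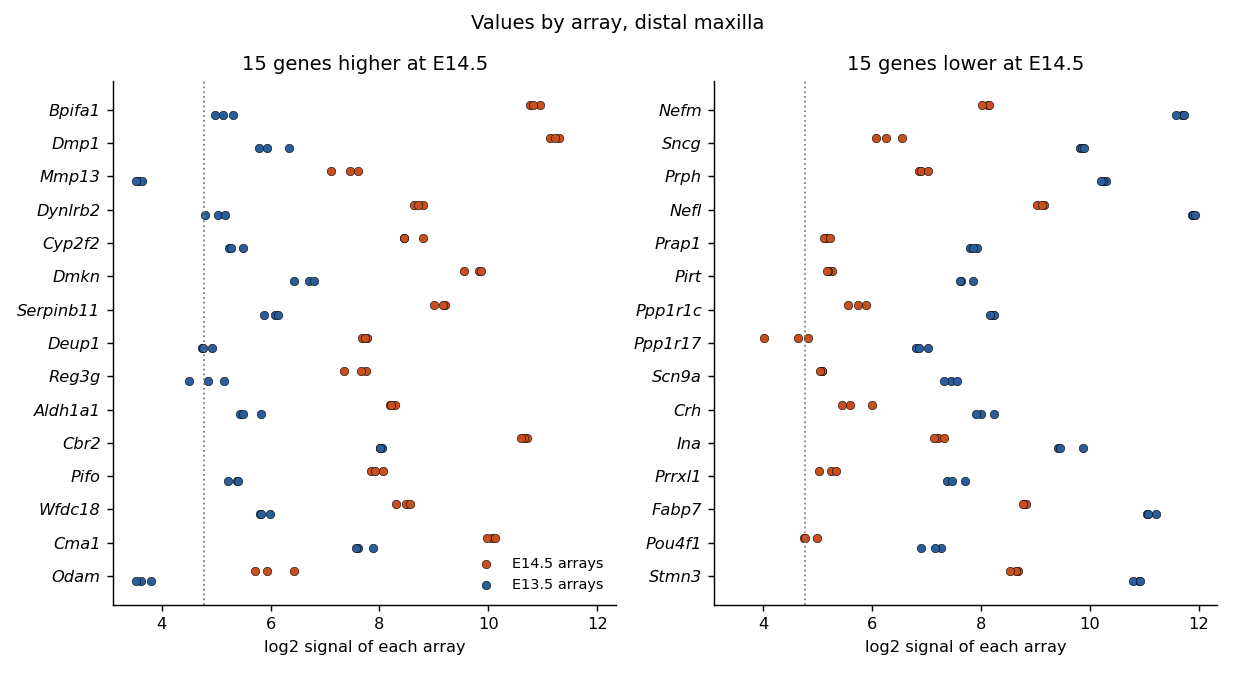
Each row is 1 of the 15 genes with the largest increase (left) or decrease (right), and each point is 1 array, with its log2 signal on the horizontal axis. Orange points are E14.5 and blue points E13.5, and the dotted line is the limit of presence at 4.78. Only genes whose arrays did not overlap between the ages were eligible, so the lack of overlap follows from the selection.

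Genes of stratified epithelium were broadly higher. Of 31 measured keratinocyte genes, 20 rose and 0 fell, with a median of 0.74. Krt1 and Krt10, the keratin pair of the suprabasal layers, rose by 1.79 (SE 0.15) and 1.59 (SE 0.10). Their basal counterparts Krt5 and Krt14 rose less, by 0.81 (adjusted p 7.38e-05) and 0.58 (adjusted p 0.0427). Krtdap, a secreted product of differentiating keratinocytes, rose by 1.90, and Krt4 and Krt13, the keratins of oral lining, rose too, Krt4 by 1.58 and Krt13 at least 1.70-fold, since it was not shown to be present at E13.5. Late barrier genes were not called, with differences of -0.04 for Lor, -0.05 for Ivl and -0.00 for Flg, and Flg was not shown to be present at either age.

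Dmkn, dermokine, a secreted protein of the granular layer, read 9.82, 9.87 and 9.54 at E14.5 and 6.70, 6.43 and 6.79 at E13.5, an 8.62-fold change. Serpinb11, a protease inhibitor of the serpin family, averaged 9.12 ± 0.11 at E14.5 and 6.03 ± 0.13 at E13.5 (SD, n = 3 each), an 8.54-fold change. Odam, a protein of the enamel organ and of junctional epithelium, averaged 6.02 ± 0.36 at E14.5 and was not shown to be present at E13.5, at least 2.37-fold higher. General epithelial markers moved in the same direction. Of 16 genes of periderm and simple epithelium, 12 rose and 1 fell, with Krt19 at 1.69, Krt8 at 1.2, the adhesion proteins Epcam at 0.54 and Cdh1 at 0.56, and Gabrp at -0.43. The summed signal of that list was 17727 to 18480 at E14.5, against 11615 to 11697 at E13.5, and its part in the airway and keratinocyte results was not tested.

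Mast cell and myeloid genes were higher as well. Cma1, chymase of connective tissue mast cells, read 10.07, 9.98 and 10.12 at E14.5 and 7.87, 7.61 and 7.58 at E13.5, a 5.16-fold change (adjusted p 5.01e-18). Of 12 mast cell genes, 7 rose and 0 fell, among them the carboxypeptidase Cpa3 by 1.63 and the histamine-forming enzyme Hdc by 1.33, and their summed signal was 5393 to 5659 at E14.5, against 2279 to 2290 at E13.5. Of 14 neutrophil and lymphocyte genes, 7 rose and 0 fell, with S100a8 at 1.21 and S100a9 at 1.08. Among interferon-response genes 5 of 14 rose and 0 fell, and the class I histocompatibility genes H2-K1 at 0.65 and H2-D1 at 0.62 were among them.

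Genes of connective tissue, fat and vessels were mostly higher where they were called. Collagen chains rose in 13 of 23 cases and fell in 0, with a median of 0.40. The largest of these was Col13a1, a transmembrane collagen of junctions and bone, at 1.31, and the basement membrane chains Col4a1 and Col4a2 stood at 0.30 and 0.33. Matrix proteinases and their inhibitors rose in 8 and fell in 2 of 18, with the inhibitor Timp1 at 1.10 and the gelatinase Mmp2 at 0.38. Dermal matrix genes rose in 8 and fell in 1 of 18. Dpt, dermatopontin, which organises collagen fibrils, rose by 1.29 and Eln, the elastic fibre protein elastin, by 0.97, while Twist2, a factor of early dermis, had a difference of -0.42.

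Of 10 genes of fat cells and their precursors, 5 rose and 1 fell. Fabp4, the fatty acid carrier of fat cells and capillaries, rose by 1.87, Pparg, the master regulator of fat cells, by 0.80 and the fatty acid transporter Cd36 by 0.77, and the precursor factor Zfp423 was at -0.23. Pericyte and smooth muscle genes rose in 3 of 13 and fell in 0, led by the potassium channel subunits Kcnj8 at 0.85 and Abcc9 at 0.73. Glycolysis and hypoxia genes rose in 6 of 15 and fell in 0, with Ndrg1 at 0.70. Immediate early and heat shock genes, which can respond to handling of tissue, rose in 5 of 16 and fell in 0, with Fos at 0.71 and Egr1 at 0.39, and their part in the other results was not tested.

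Tendon and signalling lists changed in part. In tendon, rose in 6 of 10 and fell in 1, with the proteoglycan Fmod at 0.81, the tendon membrane protein Tnmd at 0.72 and the tendon regulator Scx at -0.42. Endothelial genes rose in 8 of 17 and fell in 0, with a median of 0.18. In the Hedgehog pathway 7 of 14 rose and 0 fell. The ligand Shh, made by oral, palatal and whisker epithelium, read 9.62, 9.46 and 9.59 at E14.5 and 8.13, 8.14 and 8.41 at E13.5, a rise of 1.33 (SE 0.23, adjusted p 1.28e-05), and the targets and feedback genes Hhip, Ptch1 and Gli1 rose by 1.11, 0.58 and 0.35. The mediators Gli2 at -0.02, Gli3 at -0.04 and Smo at -0.06 were not called.

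Other pathways were mixed, and their counts stand beside 9.49% of all genes called higher and 6.07% called lower. Wnt genes rose in 6 and fell in 4 of 27 (12 and 9 with only the arrays compared), with the secreted inhibitor Wif1 at 1.2 and the target Axin2 at -0.22. Fgf genes rose in 7 and fell in 2 of 21, with the receptors Fgfr1, Fgfr2 and Fgfr3 at 0.27, 0.32 and 0.60 and the ligand Fgf7 of mesenchyme at 0.53. Bmp genes rose in 4 and fell in 2 of 19 (7 and 5 with only the arrays compared). Their ligands moved apart, with Bmp6 at 0.87 and the joint factor Gdf5 at -0.84. Tgf-beta genes rose in 5 and fell in 3 of 15 (10 and 2 with only the arrays compared), and there the ligands Tgfb1 and Tgfb3 rose by 0.60 and 0.53 while Tgfb2 was at -0.34. In the Igf axis 6 of 18 rose and 0 fell (10 and 1 with only the arrays compared). The binding protein Igfbp7 was at 0.86 and the clearance receptor Igf2r at 0.49. Retinoic acid genes rose in 3 and fell in 3 of 14, and Notch genes rose in 1 and fell in 1 of 16. Palate regulators rose in 2 and fell in 3 of 20 (3 and 7 with only the arrays compared). Tgfb3, needed for fusion of the palatal shelves, rose by 0.53 and Tbx1 by 0.54. Sim2 had a difference of -1.25, Barx1 of -0.45 and Mn1 of -0.23. Facial homeobox genes rose in 2 and fell in 3 of 23 (4 and 8 with only the arrays compared), with a median of 0.01 (-0.01 with repeated quantile normalization).

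Genes of teeth, whiskers and glands were called higher more often than the 9.49% of all genes, and olfactory genes were not. Tooth epithelium genes rose in 5 and fell in 1 of 16, with Sp6, a factor of ameloblasts, at 1.01, the Wnt and Bmp inhibitor Sostdc1 at 0.57 and the Wnt mediator Lef1 at -0.42. Tooth mesenchyme genes rose in 2 and fell in 1 of 14, with Lhx8 at 0.30. Whisker and hair follicle genes rose in 5 of 18 and fell in 0, and Dkk4, an inhibitor of Wnt signals in placodes, stood at 1.06 among them. Salivary and nasal gland genes rose in 5 and fell in 1 of 13, with the endodermal and glandular factor Foxa1 at 1.32, and 6 of the 13 were not shown to be present at either age. Olfactory genes rose in 1 and fell in 2 of 13, with the growth cone protein Gap43 at -0.63.

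The lists of the muscle sarcomere, oxidative phosphorylation, ribosome biogenesis and adult red cells had no calls. Myogenic regulators had 1 of 12 higher and 0 lower. Skeletal muscle sarcomere genes gave 0 of 25 in either direction, with a median of -0.03. When the fit held only the arrays compared, 3 of them were higher and 5 lower. Oxidative phosphorylation (17 measured) and ribosome biogenesis (17 measured) also gave 0. So did adult globin and red cell genes, but only 14 of the 20 listed were measured. Those 14 summed to 2667 to 2679 at E14.5 and 2648 to 2705 at E13.5. The 0 says nothing of the listed genes that were not measured. DNA replication genes fell in 4 of 24 and rose in 0, with a median of -0.06. Cartilage genes were called more often than the 15.6% of all genes, with 4 higher and 2 lower of 20 (8 and 6 with only the arrays compared). Their directions were mixed, with Col2a1, the main collagen of cartilage, at 0.01, the matrix protein Comp at 1.12 and the master regulator Sox9 at -0.40. Cell cycle genes, also above that share, rose in 3 and fell in 3 of 26. With each array centred on its median 3 rose and 1 fell, which is not above the share of all genes. The proliferation marker Mki67 stood at 0.21 and the mitotic kinase gene Bub1 at -0.20. At an unadjusted p of 0.05, 4662 genes would pass over the whole array.

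Embryonic globins fell without exception. Hbb-bh1, an embryonic beta-type globin, read 7.55, 7.57 and 7.47 at E14.5 and 9.65, 9.67 and 9.64 at E13.5, and 13.54, 13.56 and 13.54 a day earlier still, at E12.5. All 3 measured members were lower at E14.5: Hbb-bh1 fell by 2.13 (SE 0.10, adjusted p 6.15e-22), Hba-x, the embryonic alpha-type globin, by 1.59, and Hbb-y by 0.44 from a level near the top of the range of the arrays. The proximal maxilla gave -2.01, -1.50 and -0.23 and the distal mandible -2.19, -1.59 and -0.51 for the same genes. Of 12 genes of embryonic timing, 5 fell and 0 rose, with the chromatin protein Hmga2 at -0.52, the RNA-binding proteins Igf2bp1 at -0.37 and Igf2bp3 at -0.18, Mycn at -0.47 and alpha-fetoprotein, Afp, at -1.54.

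The steepest fall was in genes of sensory neurons. Of 23 measured genes on that list, 21 fell and 1 rose, with a median of -1.85, and all 23 were above the limit of presence at both ages. Nefm, the medium neurofilament chain of axons, read 8.14, 8.16 and 8.01 at E14.5, against 11.69, 11.74 and 11.58 at E13.5. It was 11.9-fold higher at E13.5 (difference -3.57, SE 0.25, adjusted p 7.22e-16). Prph, peripherin, the intermediate filament of peripheral neurons, read 6.87, 6.91 and 7.03 at E14.5, against 10.31, 10.24 and 10.21 at E13.5, a difference of -3.32 (SE 0.23, adjusted p 4.42e-16), which was -1.01 as the mean of its probe sets. No array of one age came near those of the other.

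The same direction held for structural, regulatory and sensory genes. Among genes of the axon, the difference was -3.56 (SE 0.30) for Sncg, gamma-synuclein of sensory and motor neurons, and -2.80 (SE 0.28) for the light neurofilament chain Nefl. It was -2.35 (SE 0.31) for the neuronal intermediate filament Ina and -2.25 (SE 0.29) for the microtubule regulator Stmn3. Pou4f1, the factor that specifies sensory ganglion neurons, averaged 4.84 ± 0.14 at E14.5, close to the limit of presence, and 7.11 ± 0.19 at E13.5 (SD, n = 3 each). Prrxl1, a homeobox factor of nociceptive circuits, fell by 2.31 (SE 0.23). The pain-pathway channel Scn9a had a difference of -2.37 (SE 0.28), or -1.02 as the mean of its probe sets, and Pirt, a membrane protein that modulates sensory channels, of -2.49 (SE 0.19). The exceptions on the list were Ntrk3, the receptor for neurotrophin 3, which rose by 0.55 (adjusted p 0.0463), and Ntrk2, which at 0.15 was not called and whose other probe sets disagreed in direction.

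These genes did not follow a steady course with age. The summed signal of the sensory neuron list in the distal maxilla was 7409 to 7725 at E12.5, 21533 to 22165 at E13.5 and 6454 to 6728 at E14.5, so the E13.5 arrays stood above both neighbouring ages. In the change at E13.5 relative to E12.5, which shares the E13.5 arrays, 22 of the 23 were called higher and 0 lower (18.9% and 16.6% of all genes). In the proximal maxilla the sum was 84481 to 85237 at E14.5 and 68880 to 70464 at E13.5, above every distal array. Whether the pieces were cut at the same place at each age was not tested.

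Glial and other neural genes moved partly with the neurons. Of 13 genes of Schwann cells and crest glia, 5 fell and 1 rose: Fabp7, the brain-type fatty acid binding protein of glial precursors, fell by 2.31 (SE 0.27), the glial cadherin Cdh19 by 0.65 and the glial factor Sox10 by 0.37, while the myelin gene Pmp22 rose by 0.36. Ppp1r1c, an inhibitor subunit of protein phosphatase 1, fell by 2.47 (SE 0.29) and Crh, the corticotropin-releasing hormone gene, by 2.37 (SE 0.30). Ppp1r17, another phosphatase inhibitor, read 4.02, 4.83 and 4.64 at E14.5, not shown to be present on average, and 7.03, 6.81 and 6.86 at E13.5, where it was at least 4.30-fold higher (a bound sets each dim array at 4.78 or at its own value, whichever is higher). Prap1, a secreted acidic protein, read 5.16, 5.13 and 5.23 at E14.5 and 7.92, 7.80 and 7.86 at E13.5 (difference -2.69, SE 0.43, adjusted p 5.34e-06). Like the neuronal genes, both were higher at E13.5 than at E12.5, by 2.21 for Ppp1r17 and 2.61 for Prap1.

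**Figure D4:**
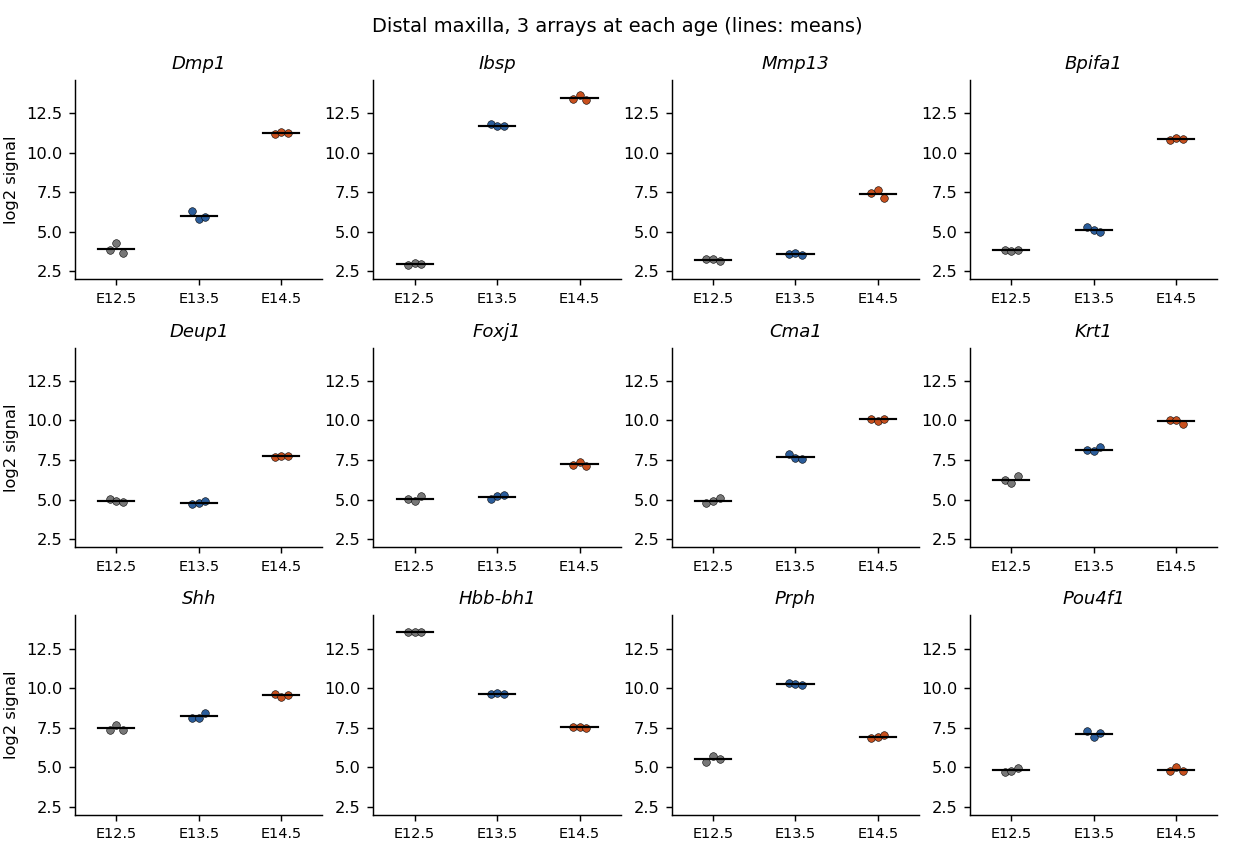
The panels give the log2 signal of 12 genes in the distal maxilla, with 3 arrays at each of E12.5, E13.5 and E14.5 as points and the mean as a line, on 1 common scale. Ibsp was present by E13.5, whereas Mmp13 was under the limit of presence at both earlier ages and Foxj1 lay near it. Hbb-bh1 fell at each step, and Prph and Pou4f1 were highest at E13.5.

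The proximal maxilla, the other piece of the same jaw, addresses whether these changes were shared along the upper jaw. It had 972 genes higher at E14.5 (5.34%) and 2080 lower (11.4%). Of the 1727 genes higher in the distal piece, 402 (23.28%) were also called higher in the proximal piece, which is 41.36% of its 972. Of the 1105 lower in the distal piece, 399 (36.11%) were also lower there, 19.18% of its 2080, while 126 were called in the opposite direction. The difference between the changes passed the test for 1290 genes (7.09%): 742 where the distal change was higher (4.08%) and 548 where it was lower (3.01%). With a repeated quantile normalization the split was 574 and 684, so which direction was the more frequent depended on the scaling.

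Part of the bone and cilia genes rose more in the distal than in the proximal piece. Mmp13 was at least 6.10-fold higher at E14.5 in the distal piece, while in the proximal piece it was not shown to be present at either age, with 4.29, 4.20 and 4.18 at E14.5 and 3.41, 3.22 and 3.32 at E13.5. Its fitted difference of changes, 2.90 (SE 0.32, adjusted p 2.42e-09), thus includes levels under the limit of presence and is not a measured size. Dmp1 rose in both pieces, by 5.19 and 2.90, and its changes differed by 2.30 (SE 0.36, adjusted p 8.69e-06). Over the bone list the distal change was higher for 8 of 20 genes and lower for 0, and the proximal piece itself had 10 rising and 0 falling with a median of 0.46. Ibsp was alike in size, 1.74 in the distal and 1.57 in the proximal piece, with a difference of changes of 0.17 (SE 0.41) that was not called.

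On the airway list the distal change was higher for 8 of 21 genes and lower for 1. Dynlrb2 rose by 3.71 in the distal and by 1.25 in the proximal piece, which differed by 2.46 (SE 0.33, adjusted p 4.03e-07). Bpifa1 rose in both, with 7.98, 7.90 and 8.10 at E14.5 and 4.46, 3.97 and 4.30 at E13.5 in the proximal piece. It was not shown to be present there at E13.5, and was at least 9.26-fold higher at E14.5. The keratinocyte genes separated the pieces more fully: the distal change was higher for 15 of 31 and lower for 0, and the proximal piece had 2 rising and 2 falling. Krt1 rose by 1.79 in the distal piece and was lower by 0.45 in the proximal piece (proximal adjusted p 0.027), a difference of changes of 2.24 (SE 0.21, adjusted p 5.91e-11). Among genes of periderm and simple epithelium the distal change was higher for 10 of 16 and lower for 0.

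Neuronal genes set the pieces of the upper jaw apart. On the sensory neuron list the distal change was lower for 20 of 23 genes and higher for 0, and the proximal piece had 5 rising and 0 falling. Prph changed by -3.32 in the distal and 0.49 in the proximal piece, a difference of changes of -3.81 (SE 0.33, adjusted p 5.07e-12; -1.26 as the mean of probe sets), and Nefm, Sncg and Nefl gave -3.77, -3.71 and -2.98. Ret, the receptor for neurotrophic factors of the Gdnf family, changed by -1.96 and 1.04, a difference of -3.0 (SE 0.46, adjusted p 5.34e-06; -1.83 as the mean of probe sets). In the proximal piece Ret read 11.44, 11.52 and 11.49 at E14.5 and 10.63, 10.29 and 10.40 at E13.5, so its arrays were higher at the later age.

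Not every fall was distal. Prap1 and Ppp1r17 fell in both pieces, with distal and proximal changes of -2.69 and -4.48 for Prap1 and of -2.40 and -2.85 for Ppp1r17, and the differences of changes, 1.79 (SE 0.61, adjusted p 0.0649) and 0.44 (SE 0.54, adjusted p 0.721), were not called. Six6, a homeobox factor of eye and pituitary, was called in the comparison because of the proximal piece. It read 5.50, 5.50 and 5.05 at E14.5 and 7.64, 7.53 and 7.44 at E13.5 there, a change of -2.19, and was not shown to be present in the distal piece at either age, so the difference of changes of 2.59 (SE 0.52, adjusted p 0.000583) is not a rise in the distal maxilla.

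**Figure D5:**
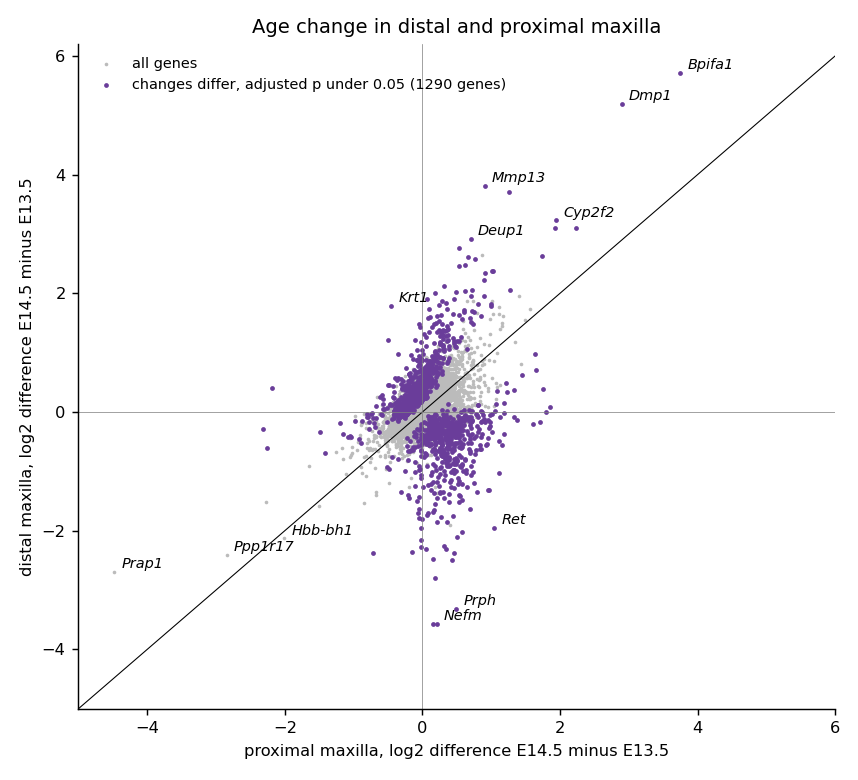
Each point is a gene, with its log2 difference between E14.5 and E13.5 in the proximal maxilla on the horizontal axis and in the distal maxilla on the vertical axis. Purple marks the 1290 genes whose changes differed, and the line marks equal change. Mmp13, Deup1 and Krt1 lie above the line, Nefm, Prph and Ret below it, and Hbb-bh1 close to it.

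The distal mandible, the matching piece of the lower jaw, was compared through its own change, since its arrays belong to another batch and levels were not set against each other. It had 1675 genes higher at E14.5 (9.21%) and 1418 lower (7.79%). Of the 1727 genes higher in the distal maxilla, 751 (43.49%) were also higher in the distal mandible, 44.84% of its 1675. Of the 1105 lower, 457 (41.36%) were also lower there, 32.23% of its 1418. The changes differed for 1057 genes (5.81%), with the maxillary change higher for 446 (2.45%) and lower for 611 (3.36%). With each array centred on its median the split was 678 and 593, so here too the more frequent direction depended on the scaling.

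Airway genes rose more in the maxilla than in the mandible. On the airway list the maxillary change was higher for 9 of 21 genes and lower for 1, and the mandible itself had 1 called higher and 0 lower. Bpifa1 changed by 5.71 in the distal maxilla and -0.04 in the distal mandible, where its 6 arrays lay between 3.45 and 3.92, all under the limit of presence, and the fitted difference of changes was 5.75 (SE 0.20, adjusted p 5.77e-28). Dynlrb2, Deup1, Reg3g and Pifo gave differences of changes of 3.97 (SE 0.33), 3.13 (SE 0.18), 3.09 (SE 0.21) and 2.78 (SE 0.25). None of these 4 was called in the mandible, with fitted changes of -0.26, -0.21, -0.33 and -0.17, and Dynlrb2 and Reg3g were not shown to be present there at either age.

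Keratinocyte genes showed the reverse. In the mandible 25 of 31 rose and 0 fell, with a median of 1.09, and the maxillary change was lower for 16 and higher for 0. Krt1 rose by 1.79 in the distal maxilla and by 3.96 in the distal mandible, and Krt10 by 1.59 and 3.35. Sprr1b, a cornified envelope protein, was not shown to be present in the maxilla at either age and in the mandible was detected only at E14.5, at least 4.70-fold higher, with a fitted difference of changes of -3.44 (SE 0.25, adjusted p 1.06e-14). Lipm, a lipase of the epidermis, was likewise detected only in the mandible at E14.5, at least 5.79-fold higher, with a fitted difference of -3.08 (SE 0.25), or -1.37 from the probe set of largest interquartile range. Dsc1, desmocollin 1 of suprabasal desmosomes, was detected only at E14.5 in both, at least 1.39-fold higher in the maxilla and at least 21.2-fold higher in the mandible, with a fitted difference of -3.31 (SE 0.24, adjusted p 6.81e-15), or -2.11 as the mean of its probe sets. Mast cell genes shared that order, with the maxillary change lower for 5 of 12 genes and higher for 0.

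Bone genes changed more in the maxilla than in the mandible for most of those that differed. The maxillary change was higher for 10 of 20 bone matrix genes and lower for 1, and the mandible had 6 rising and 0 falling with a median of 0.26. Phex changed by 2.22 in the distal maxilla and -0.06 in the distal mandible, where it read 8.10, 8.04 and 9.32 at E14.5 and 8.77, 8.26 and 8.60 at E13.5. Mmp13 was the exception. Its mandibular arrays read 10.90, 9.55 and 11.19 at E14.5 and 4.18, 3.89 and 3.75 at E13.5. It was not shown to be present at E13.5 in either jaw, and was at least 6.10-fold higher at E14.5 in the maxilla and at least 54.5-fold higher in the mandible (fitted difference of changes -2.80, adjusted p 5.92e-09).

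Neurons and muscle also set the jaws apart. The maxillary change was lower for 19 of 23 sensory neuron genes and higher for 0, with 2 rising and 0 falling in the mandible itself, and Sncg and Nefm differed by -3.31 (SE 0.43, adjusted p 1.44e-07) and -3.10 (SE 0.36, adjusted p 7.84e-09). All 25 sarcomere genes rose in the distal mandible, with a median of 1.52, against 0 of 25 in the distal maxilla, and the maxillary change was lower for 22 of them.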

How the data were processed

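Gene expression was measured on Affymetrix arrays in 60 samples of 20 groups with 3 arrays each. The deposited values are log2 signals made by the authors with RMA (background correction, quantile normalization and summary per probe set), per the submitters' processing notes; its version is not stated in the labels or files. Of 45101 probe sets, 64 are controls, 34945 have 1 gene symbol in the platform annotation, 932 several and 9160 none, and 34741 matched RefSeq with 0 symbols changed. Each of 18193 genes was read from 1 probe set, the one with the highest mean over all arrays. All 60 table columns used were matched to samples, and 0 columns were without one.

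A mean per group was fitted to all 60 arrays with limma 3.58.1 in R 4.3.3 (lmFit, then eBayes with trend, 40 residual degrees of freedom), so the 6 distal maxilla arrays share an estimate of spread with the other groups. P-values are two-sided and Benjamini-Hochberg adjusted over all genes, and a gene is called at an adjusted p under 0.05. A difference between pieces or jaws is the contrast of their age changes in the same fit. The precision is limited by the number of arrays. On simulated data for the distal maxilla comparison with 18193 genes, 70% of changes of 0.5 on the log2 scale were recovered. Of changes of 1, 98% were recovered, with 100 genes changed by each size and 6 unchanged genes called. The simulated noise was normal and independent between genes, and fewer genes were changed than were called in the data. Recovery in the data may therefore differ.

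Genes named outside the lists are the 15 that rose most and the 15 that fell most among those called, and the 5 in each direction for each contrast of changes, with a mean of at least 6 in a higher group; predicted models, Xist, Tsix and Y-linked genes were left out, and in the age comparison arrays could not overlap. Genes and lists were chosen with earlier results of these data known. Alternatives covered normalization, probe set choice, dim genes, the variance model, weights, the arrays in the fit, replicates left out and the replicate number.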

Additional observations from a re-analysis of the deposited data

Results flagged for a closer look

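The age change in the distal maxilla differed from that in the proximal maxilla for 1290 genes, and from that in the distal mandible for 1057 genes, each by a test of the difference itself. The named genes below are those with the largest such differences, as differences of log2 changes.

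Against the proximal maxilla, the distal change was higher by 2.90 for Mmp13, by 2.59 for Six6, by 2.46 for Dynlrb2, by 2.30 for Dmp1 and by 2.24 for Krt1. Neuronal genes lay at the other end, with -3.81 for Prph, -3.77 for Nefm, -3.71 for Sncg, -3.0 for Ret and -2.98 for Nefl. Six6 was called lower in the proximal piece, at -2.19, and was not shown to be present in the distal piece, where its fitted change of 0.40 was not called. The Mmp13 values here include levels under the limit of presence, so they are fitted values and not measured sizes.

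Against the distal mandible, the change in the distal maxilla was higher by 5.75 for Bpifa1, by 3.97 for Dynlrb2, by 3.13 for Deup1, by 3.09 for Reg3g and by 2.78 for Pifo. It was lower for Sprr1b at -3.44, Dsc1 at -3.31, Sncg at -3.31, Nefm at -3.10 and Lipm at -3.08. Sprr1b and Lipm were not shown to be present in the distal maxilla at either age, and Bpifa1, Dynlrb2 and Reg3g were not in the mandible, so these too are fitted values.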

How the results depend on the processing

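The named genes were picked from these same arrays as the largest called differences, which favours agreement under the alternatives. Over 50 named differences and 920 values under the alternatives, the direction and the side of the threshold were the same in 920, with a highest adjusted p of 0.0382. The size moved by over 1.5 times in 6 of them: with the mean of probe sets Prph was at -1.01 and Scn9a at -1.02 between the ages, Prph at -1.26 and Ret at -1.83 against the proximal maxilla and Dsc1 at -2.11 against the mandible, and with the probe set of largest interquartile range Lipm was at -1.37 there. Of 54 gene lists, the number called moved by over 1.5 times in 1 with centring, 3 with quantile normalization and 23 with only the arrays compared, where it was larger in 22. The more frequent direction turned in 1, the myogenic regulators, with 1 higher and 5 lower of 12. The counts of called genes moved more. With array weights, whose fit did not fully converge, 4571 genes were called between the ages (2665 higher, 1906 lower), 4755 against the proximal maxilla (3376 higher, 1379 lower) and 2530 against the distal mandible (1413 higher, 1117 lower). With a 2-fold limit the counts were 266 (166 higher, 100 lower), 272 (76 higher, 196 lower) and 358 (92 higher, 266 lower). With only the arrays compared they were 3722 between the ages (2269 higher, 1453 lower), against 2832 in the main fit. In that setting they were 2173 against the proximal maxilla (1366 higher) and 1672 against the mandible (739 higher, 933 lower). With only batch 2 they were 3823 between the ages (2301 higher, 1522 lower) and 2504 against the proximal maxilla (1654 higher, 850 lower). Centring each array on its median gave 678 genes higher against the mandible, and it moved the median of all genes to 0.004, against -0.0115 with repeated quantile normalization.

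Leaving out a replicate gave 1786 to 2385 genes between the ages (1092 to 1521 higher, 583 to 952 lower), with 1786, 1887 and 1814 without replicates 1, 2 and 3 of both ages. Against the proximal maxilla it gave 581 to 714 (581, 586 and 714 without replicates 1, 2 and 3; 222 to 367 higher, 347 to 364 lower) and against the mandible 512 to 724 (512, 513 and 724; 165 to 336 higher, 336 to 388 lower). Fewer arrays enter these fits; the cause of the other shifts was not tested.

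Replicate numbers did not pair the distal maxilla arrays across the ages: deviations of same-numbered arrays correlated at -0.0266, -0.264 and 0.0957. Whether same-numbered distal and proximal arrays of one age were paired was not tested. The replicate block joined the same-numbered arrays of a batch over all its ages and pieces. With the replicate block as a fixed term 2953 genes were called between the ages, and as a random term 2738; against the proximal maxilla 1407 and 1212, and against the mandible 1140 and 1013.

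Of the called genes with several probe sets, 615 of 1599 had another probe set called in the same direction and 4 in the opposite one. Levels near 4.78 limit what can be said: 75 called genes were under it at both ages.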

Other observations

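Further genes of motile cilia and of bone were noticed after their values were seen and carry no weight as a group. Zmynd10, needed for assembly of ciliary dynein arms, rose by 1.27 (limma adjusted p 3.68e-10), and Meig1 by 1.49. Capsl, Cfap52 and Enkur were not shown to be present at E13.5 and were at least 2.74-fold, 3.15-fold and 1.84-fold higher at E14.5. Ambn, the enamel matrix protein ameloblastin, averaged 8.65 ± 0.03 at E14.5 and 6.69 ± 0.15 at E13.5 (SD, n = 3 each), a rise of 1.96, and Col22a1, a collagen of tissue junctions, rose by 2.34.

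Other falls outside the neuronal list, also picked after seeing the values, were those of Hoxd1 at -1.70, Guca2b, the gut peptide uroguanylin, at -1.51, and Foxc2, a forkhead factor of mesenchyme, at -1.0. The zinc finger factors Zic1 and Zic2 both had a difference of -1.26. Fgf5 was at -1.36 and was not shown to be present at E14.5.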
